A study of Mus musculus with 12 samples.

Results

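The complement genes C1ra, C1s1, Serping1, C4b, C2, Cfb, Cfd, C3 and Cfhr2 were followed in pre-adipocytes grown with macrophages and grown alone. The 9 genes were taken by name, through the transcript accession each probe carries, which gave 13 of the 39429 probes and 9 of the 20886 genes named on the array. Of the 9, 8 were among the 13837 genes bright enough to be tested. The cells were 3T3-L1, mouse fibroblasts able to become adipocytes, kept either below a porous insert that held macrophages of the mouse line RAW264.7 or alone. Cultures received 100 µM serotonin (S), 100 µM cortisol (C), 100 µM of each (CS) or no treatment (NT) for 6, 24 or 48 h. On all 12 arrays the co-cultured cells were labelled with Cy5 and set against Cy3-labelled cells alone that had the same treatment for as long. The 3T3-L1 line and the medium were shared by all groups, the macrophages by all co-cultures, and hormone stocks were made in DMSO. The paper states that the medium was changed after 24 h, with the hormones supplied again. Cultures of 6 h were harvested before such a change. Each condition had 1 array, and since dyes were never swapped, any dye bias stays in the ratios. Each time lay on a slide of its own, so time, slide and, for 48 h, the change of medium cannot be told apart.

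Complement is a cascade of plasma proteins that tags targets for removal. The classical route starts with the C1 proteases, which cut C4 and C2, the alternative route uses factor B and factor D, and both routes cut C3, the central component. C1 inhibitor holds the classical route back. Factor D is also known as adipsin, a secreted product of fat cells.

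Of the 8 tested genes, Cfb stood highest in co-culture at every time, between 3.64-fold and 4.34-fold over cells alone. C1s1 and Serping1 were higher by 1.52-fold to 1.63-fold at 6 and 24 h, and Cfhr2 was 3.97-fold lower at 48 h. Without the S array at 24 h, C1s1 (log2 0.45) and Serping1 (0.48) fell below 1.5-fold at that time. The size for Cfhr2 is that of its brighter probe and was much smaller by the other. The 4 treatments of a time stand in for replicates, so p-values measure only the spread between these arrays, and fewer cells of a type cannot be told apart from less RNA per cell. A gene was called when its Benjamini-Hochberg adjusted p was under 0.05 and it differed by at least 1.5-fold. At 6 h, 3 of 8 were called higher and 0 lower, where 9.67% of all 13833 genes tested were called, 4.4% higher and 5.27% lower. At 24 h the count was again 3 higher and 0 lower, against 8.39% called among all genes, 4.73% higher and 3.66% lower. These genes and the other lists were chosen with earlier results of these data known, so a count above the share over all genes is no test. At 48 h it was 1 higher and 1 lower, against 31.5% called among all genes, 14.5% higher and 17% lower, so the count of 2 of 8 at 48 h lay close to the share over all genes. The median log2 ratio of the 8 genes was 0.44 at 6 h, 0.12 at 24 h and 0.35 at 48 h, beside medians over all genes of -0.02, 0.00 and -0.02.

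**Figure D1:**
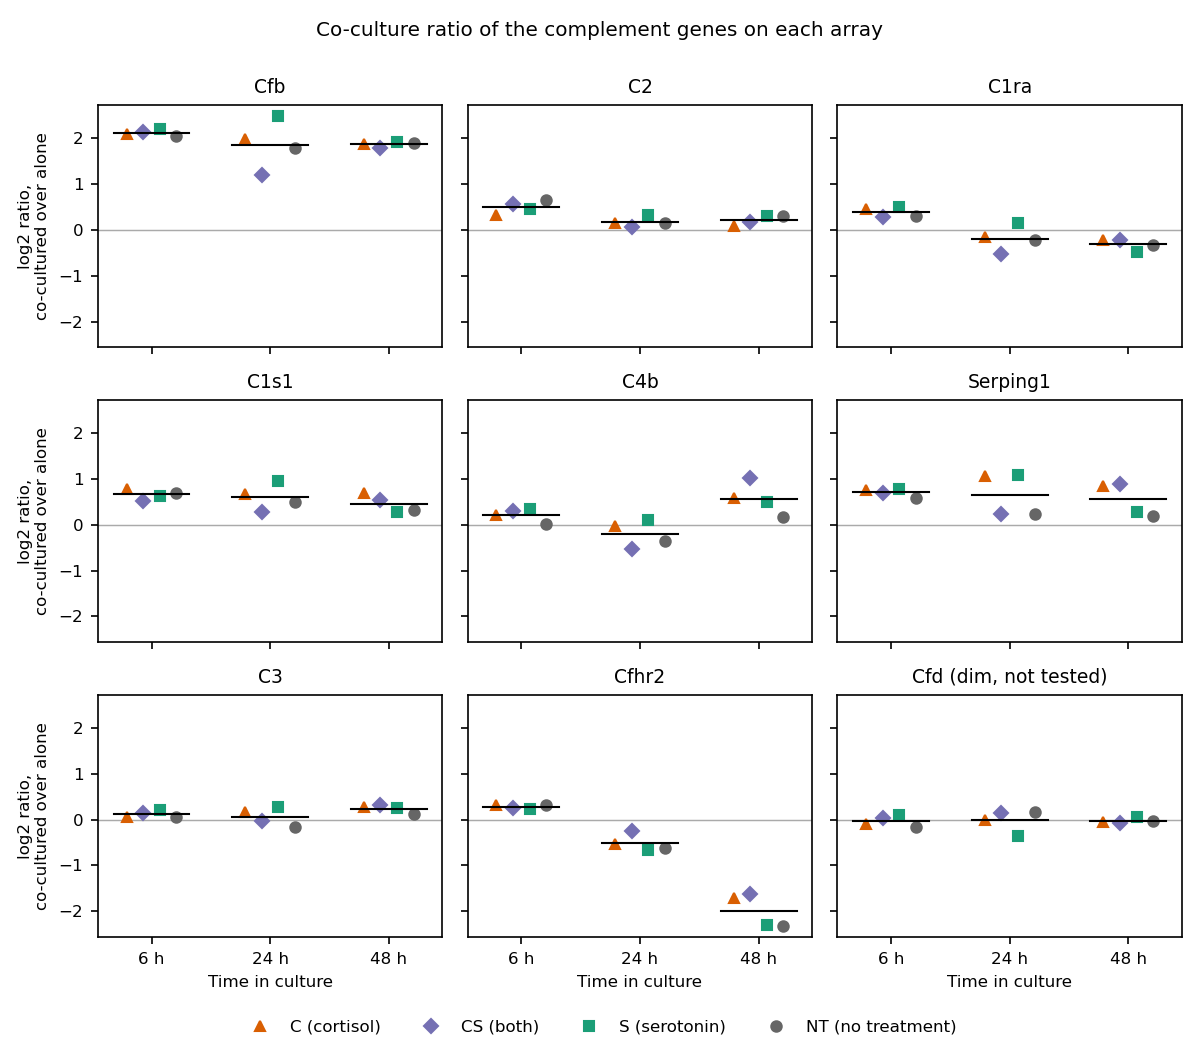
Log2 ratio of co-cultured over alone on each array, by time in culture, for each of the 9 genes, with a symbol per treatment and a line at the mean of the 4 arrays of a time. Cfb lies above 1.2 on 12 of 12 arrays, Cfhr2 falls to between -2.32 and -1.62 at 48 h, and C3 and Cfd stay near 0.

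The number of probes well above background ran from 19949 to 22824 for co-cultured cells and from 18443 to 21368 for cells alone. Of 12 fibroblast markers with a probe, 11 lay well above background on all arrays in both channels, and of 12 adipocyte markers 4 did so (Dgat2, Fabp4, Pnpla2 and Pparg), while Adipoq and Lep did on none. Of 16 macrophage markers with a probe, 7 lay well above background on all arrays in both channels (Aif1, Cd14, Cd53, Clec4d, Csf1r, Itgam and Mpeg1), and none lay below it on every array of both. Ctss and Fcer1g did so on 12 arrays in co-cultured cells and 10 in cells alone, Lyz2 on 8 and 7, Tyrobp on 6 and 0, Adgre1 on 3 and 1, and Ptprc, Spi1, Fcgr1 and Laptm5 on at most 1 in either. For the 12 bright enough to be tested, the log2 of their summed signals, in which the brightest weigh most, was 13.58 to 14.20 in co-cultured cells. It was 12.90 to 13.72 in cells alone. Of these 12, 7 were called higher at 6 h, 2 at 24 h and 6 at 48 h, with 1 lower at 48 h, where 4.4%, 4.73% and 14.5% of all genes were called higher and 17% lower at 48 h. Their part in the complement values was not tested. Zbtb16, which glucocorticoids induce, had a log2 level of 10.65 to 11.15 in the 6 co-cultures with cortisol and 8.25 to 8.95 in the 6 without. In cells alone the libraries labelled S at 6 h (10.66) and S at 24 h (10.53) were high, and the library labelled CS at 24 h was low at 9.18. The other cells alone lay between 11.28 and 11.44 with cortisol and between 8.35 and 8.71 without. These 3 libraries of cells alone go against their labels, so the co-culture ratios, their called changes with time and the called effects of cortisol are also given without their 3 arrays. The ratios of 48 h do not change with that.

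C1r and C1s are the paired proteases of the C1 complex, and their genes C1ra and C1s1 lie next to each other on chromosome 6. The promoters of this neighbouring pair are shown because, by their brightest probes, C1ra was lower and C1s1 higher in co-culture at 48 h. Neither value reached 1.5-fold. At 48 h minus 6 h the ratio changed by -0.70 for C1ra, which was called, and by -0.21 for C1s1. The second did not pass in limma (adjusted p = 0.1859), and the gap between the genes was not tested. Sequences are from RefSeq (GRCm38.p6) and run from 250 bases before to 50 bases after the start, which 5 of the 9 genes had. Capitals mark matches, on either strand, to TTGCNNAA (bound by C/EBP factors, which drive acute-phase genes), TTCNNNGAA (STAT factors), or to the interferon response, glucocorticoid receptor or NF-kB consensus. Of 32851 promoters of the same length, 10.8% held the C/EBP letters, 8.3% the STAT letters, 3.44% the interferon response element, 0.475% the glucocorticoid receptor element and 4.51% the NF-kB element.
C1ra (chr6:124512371-124512670, plus strand): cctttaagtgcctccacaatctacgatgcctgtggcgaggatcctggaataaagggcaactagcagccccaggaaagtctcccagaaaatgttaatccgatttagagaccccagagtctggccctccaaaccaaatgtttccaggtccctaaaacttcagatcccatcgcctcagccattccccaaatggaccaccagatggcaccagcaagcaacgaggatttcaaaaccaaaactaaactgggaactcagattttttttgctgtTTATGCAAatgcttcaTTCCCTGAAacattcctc
C1s1 (chr6:124542310-124542609, minus strand): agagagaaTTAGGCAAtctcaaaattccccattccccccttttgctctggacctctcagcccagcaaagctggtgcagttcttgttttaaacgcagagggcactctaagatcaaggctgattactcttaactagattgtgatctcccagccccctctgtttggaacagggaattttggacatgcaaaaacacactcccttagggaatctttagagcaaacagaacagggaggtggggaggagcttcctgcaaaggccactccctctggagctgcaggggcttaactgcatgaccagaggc
The C1ra window held 1 match to the C/EBP letters and 1 to the STAT letters, both after its start. The C1s1 window held 1 match to the C/EBP letters at its far end, and another C1s1 start listed by RefSeq held none.

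C1s1 was higher in co-culture on 12 of 12 arrays, with log2 ratios of 0.27 to 0.95. At 6 h its ratio was 0.64 in S, 0.79 in C, 0.52 in CS and 0.70 in NT. The mean was 0.66 ± 0.09 or 1.58-fold (adjusted p = 0.0001366), and 0.61 and called without the 3 arrays. Here and below, ± gives the SE from the fit, which pools the spread of all 12 arrays. It is therefore the same at every time for these genes and does not measure the spread of a time's 4 arrays. At 24 h the ratio was 0.95 in S, 0.68 in C, 0.27 in CS and 0.51 in NT, a mean of 0.60 ± 0.09 (adjusted p = 0.0002674). The S and CS arrays were the ends of this range, and both hold a library of cells alone that goes against its label. Without the S array at 24 h the mean was 0.45, and without the 3 arrays 0.50, both under the fold threshold. At 48 h C1s1 lay at 0.46 ± 0.09, above 0 on 4 of 4 arrays but short of 1.5-fold. With arrays centred on their median and no loess, the values of C1s1 were 1.46 at 6 h and 1.52 at 24 h.

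The ratio of C1ra was above 0 at first and below 0 at 48 h, and at 24 h its sign turned with median centring (0.39). Its log2 ratio lay between 0.27 and 0.51 on the 4 arrays of 6 h and between -0.47 and -0.22 on the 4 arrays of 48 h, so the times did not overlap. The means were 0.38 ± 0.08 at 6 h, -0.19 ± 0.08 at 24 h and -0.31 ± 0.08 at 48 h, and at each time C1ra fell short of 1.5-fold. The ratio at 48 h minus that at 6 h was -0.70 ± 0.12 (adjusted p = 0.000489), which was called, as were 24.2% of all genes. Without the S array at 48 h this difference was -0.57, under the fold threshold, and without the 3 arrays it was -0.60 and called (adjusted p = 0.00145), with means of 0.29 at 6 h and -0.25 at 24 h. In the separate channels, C1ra stood 0.36 ± 0.06 lower at 48 h than at 6 h in co-cultured cells and 0.34 ± 0.11 higher in cells alone, neither reaching 1.5-fold. A dimmer C1ra probe lay at 0.44 ± 0.07, -0.02 ± 0.07 and -0.01 ± 0.07 at 6, 24 and 48 h. Its ratios followed those of the brightest probe (r = 0.94 over 12 arrays that share both libraries), while its levels in co-cultured cells did not (r = 0.05). The near copies C1rb and C1s2 lie beside this pair, so that a probe may not tell the copies apart.

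Serping1 encodes C1 inhibitor, which blocks C1r and C1s. Its log2 ratio at 6 h was 0.78 in S, 0.75 in C, 0.70 in CS and 0.59 in NT, a mean of 0.71 ± 0.13 or 1.63-fold (adjusted p = 0.0012), and 0.59 ± 0.12 without the 3 arrays (adjusted p = 0.00764), just past the fold threshold. At 24 h it was 1.08 in S, 1.06 in C, 0.23 in CS and 0.24 in NT, a mean of 0.65 ± 0.13 (adjusted p = 0.0021) with an SD of 0.48 over the 4 arrays. At 48 h it was 0.29 in S, 0.85 in C, 0.88 in CS and 0.18 in NT, a mean of 0.55 ± 0.13 that fell just short of the fold threshold and passed it without the NT (0.59) or the S (0.72) array of that time. With median centring the value at 48 h was 0.21. All 12 ratios were above 0, but from 24 h on the arrays fell into a high and a low pair. The high pair at 24 h was S and C, and at 48 h it was C and CS, where S and CS at 24 h hold libraries of cells alone that go against their labels. At 48 h cells alone had a log2 level of 8.42 in C and 8.73 in CS, against 9.32 in S and 9.20 in NT, whereas co-cultured cells had 9.27 in C and 9.61 in CS, against 9.60 in S and 9.38 in NT. Thus the cortisol groups, of 2 arrays each, were apart in cells alone and overlapped in co-cultured cells. Groups this small can readily part by chance. Fitted for that time, the cortisol effect on Serping1 in cells alone was -0.69 ± 0.32 (adjusted p = 0.5379, where 0.00723% of all genes were called), and -0.69 ± 0.11 without the 3 arrays (adjusted p = 0.0518, where 2.13% were), and neither passed. The call at 24 h was lost without the S array (0.48) or without the C array (0.57), and held without the 3 arrays (0.63 ± 0.15, adjusted p = 0.0254). A dimmer Serping1 probe lay at 0.69 ± 0.10, 0.60 ± 0.10 and 0.32 ± 0.10 at 6, 24 and 48 h and was called at 6 and 24 h.

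C4b and C2 encode the components that the C1 proteases cut to make the classical C3 convertase. The log2 ratio of C4b averaged 0.22 ± 0.11 after 6 h, -0.20 ± 0.11 after 24 h and 0.57 ± 0.11 after 48 h, which was a 1.49-fold difference. At 24 h the arrays ran from -0.53 in CS to 0.10 in S. At 48 h they were 0.50 in S, 0.58 in C, 1.03 in CS and 0.18 in NT, so NT at 48 h lay within the range of the 6 h arrays, 0.02 to 0.34. The ratio at 48 h minus that at 24 h was 0.77 ± 0.16 (adjusted p = 0.0018) and was called, as were 21% of all genes. Without the CS array at 24 h it was 0.58, as it was without the CS array at 48 h, and not called. Without the 3 arrays it was 0.65 ± 0.15 and called (adjusted p = 0.0129), and the C4b ratio was 0.15 at 6 h and -0.08 at 24 h. With median centring the C4b ratio at 24 h was 0.20 and the change to 48 h -0.03, both opposite in sign. The value at 48 h was itself called when any of the NT (0.64), S (0.67) or C (0.60) arrays of 48 h was left out. In the channels, C4b in co-cultured cells was 0.33 ± 0.12 higher at 48 h than at 6 h, and in cells alone it differed by -0.03 ± 0.17. No probe of its copy C4a was matched here, so the C4b probe may read both.

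C2 was dim, well above background on 11 of 12 arrays in co-cultured cells and on 4 of 12 in cells alone. All 12 of its ratios were above 0, between 0.07 and 0.66. The means were 0.50 ± 0.06 at 6 h, 0.18 ± 0.06 at 24 h and 0.22 ± 0.06 at 48 h, and none reached 1.5-fold. They were 0.55 at 6 h and 0.19 at 24 h when the 3 arrays were left out. With a smaller offset added to the signals the value at 6 h was 0.71 and called. With the scanner software's own processed signals the values were 1.25, 0.63 and 0.84 at the 3 times, all called, so whether C2 passed depended on the signals used. C2 lies next to Cfb on chromosome 17, and the ratios of the pair did not overlap on any array.

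Cfb encodes factor B, which supplies the protease of the alternative C3 convertase. Its log2 ratio at 6 h was 2.20 in S, 2.09 in C, 2.14 in CS and 2.05 in NT. At 24 h it was 2.47 in S, 1.99 in C, 1.21 in CS and 1.79 in NT. At 48 h it was 1.93 in S, 1.88 in C, 1.80 in CS and 1.89 in NT. The 4 arrays of 6 h and the 4 of 48 h lay within narrow ranges that did not overlap, and those of 24 h were spread widely on both sides. The means were 2.12 ± 0.12 at 6 h (4.34-fold, adjusted p = 8.328e-07), 1.86 ± 0.12 at 24 h (3.64-fold, adjusted p = 1.211e-06) and 1.88 ± 0.12 at 48 h (3.67-fold, adjusted p = 9.39e-08). The SD over the 4 arrays was 0.07, 0.52 and 0.06 at these times. The mean without the 3 arrays in doubt was 2.11 ± 0.09 at 6 h and 1.90 ± 0.11 at 24 h. The difference of 48 h minus 6 h was -0.24 ± 0.16 and did not pass (adjusted p = 0.2326). With median centring instead of loess, the Cfb means became 2.35, 2.26 and 1.48 in order of time, all still called. Cfb thus stayed higher in co-culture either way, but its course over time depended on dye normalization. Over the 12 ratios, the genes whose pattern was most like that of Cfb were Ces1f (r = 0.95), Vegfc (r = 0.94) and Lef1 (r = 0.93).

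Cfd encodes factor D, which cuts factor B. Its probe was well above background on 1 of 12 arrays in co-cultured cells and on 2 of 12 in cells alone, and it was therefore not tested. Its ratios ran from -0.35 to 0.15 with a median of -0.02, which at this brightness shows no more than that a difference was not detectable.

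C3 is the component on which the routes meet. Its promoter is shown as that of the central component and a textbook target of C/EBP factors.
C3 (chr17:57228087-57228386, minus strand): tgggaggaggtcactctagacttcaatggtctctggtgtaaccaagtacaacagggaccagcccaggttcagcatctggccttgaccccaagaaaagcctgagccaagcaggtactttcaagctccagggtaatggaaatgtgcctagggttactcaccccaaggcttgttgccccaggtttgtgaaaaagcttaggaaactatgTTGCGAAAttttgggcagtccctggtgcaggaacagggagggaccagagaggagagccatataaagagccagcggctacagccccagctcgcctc
The window held 1 match, to the C/EBP letters, before the start. C3 was measured by a probe printed in 10 spots, with a log2 level of 17.24 to 17.50 in co-cultured cells and 17.08 to 17.50 in cells alone. On each array most of these spots were not flagged as saturated, and whether any were was not counted. Its log2 ratio was 0.12 ± 0.05 at 6 h, 0.05 ± 0.05 at 24 h and 0.24 ± 0.05 at 48 h, with single arrays from -0.17 to 0.32, and without the 3 arrays it was 0.09 at 6 h and 0.03 at 24 h. The value at 48 h passed the adjusted p (0.0008635) but was a difference of 1.18-fold. Its direction depended on dye normalization, since with the scanner software's processed signals the ratio was -0.08, -0.25 and -0.02 at the 3 times and with arrays centred on their median it was 1.75, 1.73 and 1.01. The other C3 probe lay at 0.26 ± 0.06 at 6 h, 0.07 ± 0.06 at 24 h and -0.26 ± 0.06 at 48 h, opposite in sign at 48 h. No direction can therefore be given for C3.

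Cfhr2 lies on chromosome 1 and encodes a secreted protein of a family of complement regulators. Its promoter is shown because this gene had the furthest change with time.
Cfhr2 (chr1:139858650-139858949, minus strand): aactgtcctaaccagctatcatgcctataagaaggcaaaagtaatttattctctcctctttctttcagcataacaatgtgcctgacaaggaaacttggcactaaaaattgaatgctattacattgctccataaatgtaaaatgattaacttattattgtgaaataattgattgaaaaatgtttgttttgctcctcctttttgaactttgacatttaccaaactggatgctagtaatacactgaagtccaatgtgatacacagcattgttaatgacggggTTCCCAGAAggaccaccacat
The window held 1 match, to the STAT letters, after the start. At 6 h the log2 ratio was 0.22 in S, 0.33 in C, 0.25 in CS and 0.31 in NT. At 24 h it was -0.66 in S, -0.54 in C, -0.25 in CS and -0.61 in NT. At 48 h it was -2.29 in S, -1.72 in C, -1.62 in CS and -2.32 in NT. The 3 times did not overlap on any array. The means were 0.28 ± 0.09 at 6 h, -0.52 ± 0.09 at 24 h and -1.99 ± 0.09 at 48 h (3.97-fold lower, adjusted p = 1.022e-08). The change at 24 h minus 6 h was -0.79 ± 0.12 (adjusted p = 0.006, where 2.48% of all genes were called), the change at 48 h minus 24 h was -1.47 ± 0.12 and that at 48 h minus 6 h was -2.26 ± 0.12. With median centring the ratio at 24 h was -0.09. Without the 3 arrays the ratio was 0.19 at 6 h and -0.62 at 24 h, the second called. Of the changes without them, the first was -0.82 and did not pass (adjusted p = 0.144), while the others were -1.37 (adjusted p = 0.00137) and -2.18 (adjusted p = 6.39e-05). The level in co-cultured cells was 1.99 ± 0.25 lower at 48 h than at 6 h (adjusted p = 8.57e-05, where 28.7% of all genes were called; -1.75 without the 3 arrays, adjusted p = 0.00319), while that in cells alone differed by 0.27 ± 0.17 (adjusted p = 0.2497, where 13.8% of all genes were called). For 24 h minus 6 h, 0 of 8 genes were called in co-cultured cells (8.93% of all genes) and 0 of 8 in cells alone (11.2%), and 2 and 1 of them had an unadjusted p under 0.05.

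A dimmer Cfhr2 probe went the same way but much less far, with 0.06 ± 0.08 at 6 h, -0.28 ± 0.08 at 24 h and -0.42 ± 0.08 at 48 h, and was not called at any time. The size of the change of Cfhr2 thus rests on 1 probe. The genes most like Cfhr2 in ratio were Lsm1 (r = 0.99), Oxct1 (r = 0.98) and Nxf3 (r = 0.98). Cfhr2 belongs to a family of close copies, so what each probe reads cannot be told apart here.

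**Figure D2:**
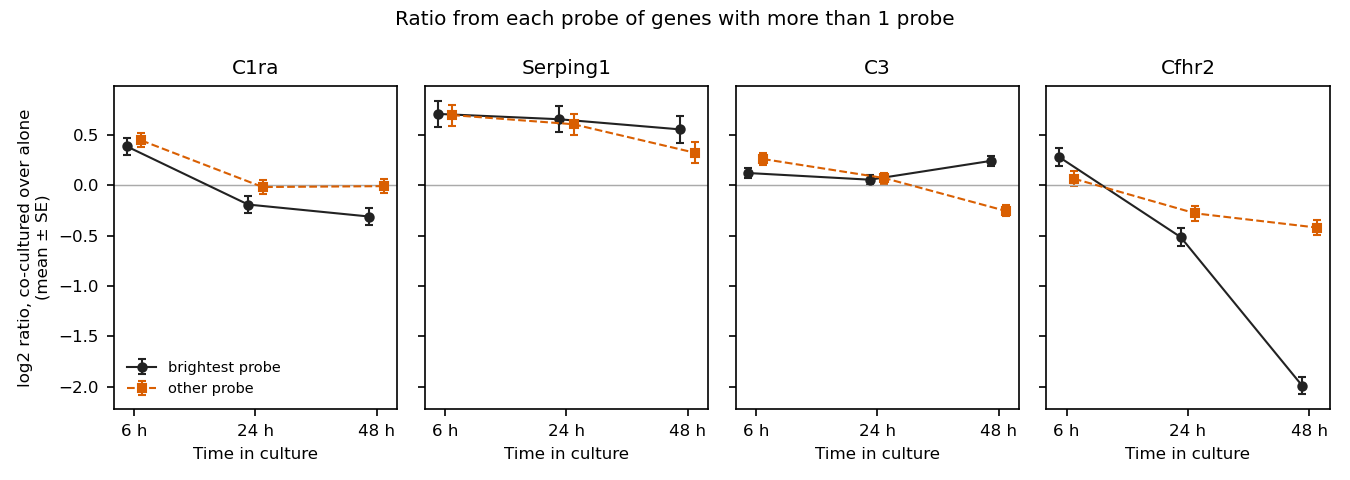
Log2 ratio of co-cultured over alone (mean of 4 arrays per time ± SE from the fit, which pools all 12 arrays) for both probes of the genes with more than 1 probe. The pairs run together for Serping1 until 24 h, lie on opposite sides of 0 for C3 at 48 h, and part for Cfhr2 at 48 h, where the values were -1.99 and -0.42.

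The hormones were compared in the ratios and in each channel. In the ratios, 0 of 8 genes were called in limma for S, C or CS against NT, where 0% of all genes were called for each, and 0 of 8 for cortisol as a main effect (the mean of C and CS minus that of S and NT), where 0.0145% were. At an unadjusted p under 0.05, 1 of 8 passed in each of these 4 comparisons. The ratio for Cfb changed by -0.21 ± 0.13 and that for Cfhr2 by 0.30 ± 0.10 with cortisol. These counts stayed at 0 without the 3 arrays.

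In co-cultured cells, cortisol cultures held less Cfb, and from 24 h on a higher signal of the brighter Cfhr2 probe. The log2 of the summed macrophage marker signals in co-cultured cells was 13.58 to 14.02 with cortisol and 13.91 to 14.20 without. In cells alone that sum was 12.90 to 13.60 with cortisol and 13.10 to 13.72 without, and its part in these values was not tested. In co-cultured cells at 48 h the log2 level of Cfb was 11.16 in C and 11.16 in CS, against 12.20 in S and 12.04 in NT. In cells alone at 48 h it was 9.28 in C and 9.36 in CS, against 10.27 in S and 10.15 in NT. Cortisol cultures thus lay below the others in both channels, and the ratio at 48 h was close to 1.9 in all 4 treatments. As a main effect over the 3 times, cortisol lowered Cfb in co-cultured cells by 0.65 ± 0.12 (1.57-fold, adjusted p = 0.009, lower in 6 of 6 pairs), where 2.61% of all genes were called. The same effect in cells alone was -0.45 ± 0.18 (adjusted p = 0.1973, lower in 5 of 6 pairs), where 0.99% were called. Without the 3 arrays the effect in co-cultured cells was -0.81 but did not pass (adjusted p = 0.0682), and without the S array at 48 h it was -0.57, under the fold threshold. CS minus NT for Cfb in co-cultured cells was -0.68 ± 0.17 (adjusted p = 0.0454, where 3.63% were called) and fell short of the threshold when any of 8 single arrays or the 3 arrays (-0.64, adjusted p = 0.218) were left out. C minus NT was of like size, -0.66 ± 0.17, with adjusted p = 0.0721 and 1.94% of all genes called. In cells alone, 0 of 8 genes were called for C minus NT (0.174% of all genes) or CS minus NT (1.42%), and 4 and 1 of them had an unadjusted p under 0.05. In co-cultured cells S minus NT for Cfb was -0.03 ± 0.17, and 0 of 8 genes passed in either channel for S, where 0% of all genes were called. At an unadjusted p under 0.05, 0 of 8 passed for S in co-cultured cells and 1 of 8 in cells alone.

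**Figure D3:**
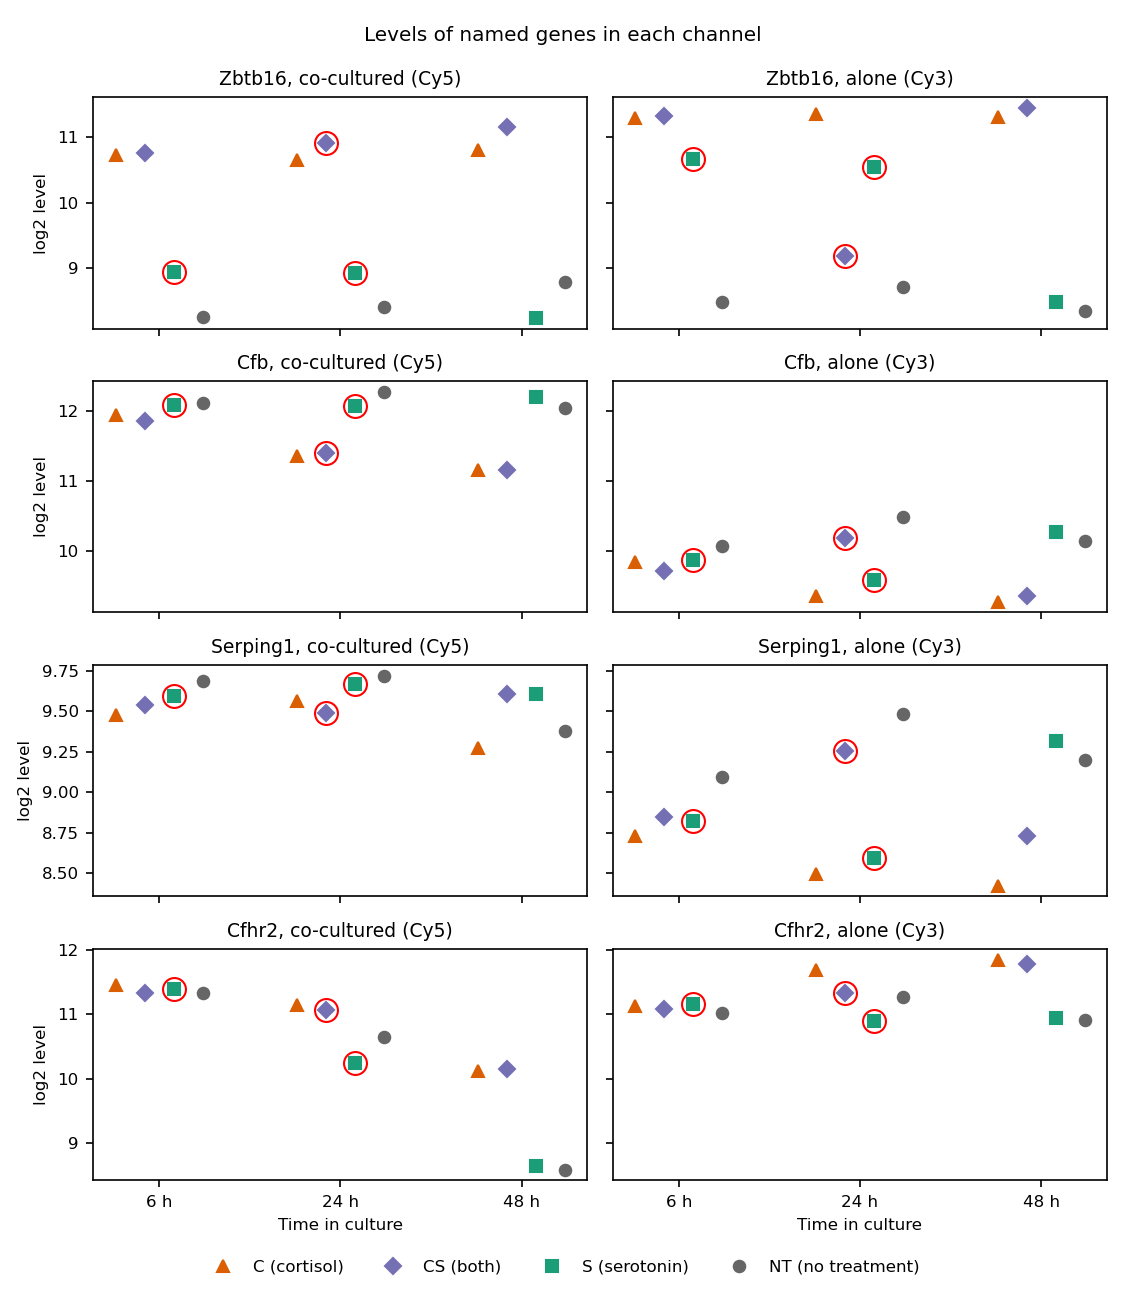
Log2 level of Zbtb16, Cfb, Serping1 and Cfhr2 in co-cultured cells (Cy5, left) and cells alone (Cy3, right) on each array, by time, with a symbol per treatment and red rings on the 3 arrays whose cells alone go against their cortisol label. At 48 h the cortisol cultures lie lower for Cfb and higher for Cfhr2 than the others in both channels.

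Fitted for each time, the cortisol effect on Cfb in co-cultured cells was -0.20 ± 0.11 at 6 h (where 1.49% of all genes were called), -0.79 ± 0.11 at 24 h (adjusted p = 0.0113, where 2.18% of all genes were called) and -0.96 ± 0.11 at 48 h (adjusted p = 0.0033, where 2.08% were). The effect at 48 h minus that at 6 h was -0.76 ± 0.16 and did not pass (adjusted p = 0.2155). On Cfhr2 it was 0.03 ± 0.14 at 6 h, 0.65 ± 0.14 at 24 h (adjusted p = 0.0419) and 1.52 ± 0.14 at 48 h (adjusted p = 0.0007902). Without the 3 arrays, 1 array with and 1 without cortisol were left at 24 h, too few to test the effect. It was then -0.92 for Cfb and 0.49 for Cfhr2. The calls at 24 h thus rest in part on arrays whose cells alone are in doubt. Co-cultured cells on these arrays went with their labels, with Zbtb16 levels at 24 h of 8.93 in S and 10.90 in CS. For Cfhr2 the effect at 48 h minus that at 6 h was 1.48 ± 0.19 (adjusted p = 0.0395, where 0.0651% of all genes were called). These values are of the brighter Cfhr2 probe. By the dimmer one, the 6, 24 and 48 h effects were 0.06 ± 0.15, 0.12 ± 0.15 and 0.58 ± 0.15 (adjusted p = 0.1073 for the last), none of them called. Its level in co-cultured cells at 48 h was 8.35 in C and 8.51 in CS, against 7.83 in S and 7.87 in NT. With 2 arrays a group, levels can readily part by chance, and the share of genes that do was not counted. In that fit over all probes, the change of the effect with time just missed the threshold for the brighter probe (1.48 ± 0.19, adjusted p = 0.0502) and was 0.52 ± 0.22 for the dimmer one (adjusted p = 0.4745).

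At 48 h the brighter probe's Cfhr2 level in co-cultured cells was 10.12 in C and 10.15 in CS, against 8.65 in S and 8.59 in NT. In cells alone it was 11.84 in C and 11.77 in CS, against 10.94 in S and 10.91 in NT. Without the 3 arrays the effect on Cfhr2 at 48 h in co-cultured cells still passed (1.52 ± 0.13, adjusted p = 0.0248, where 0.391% of all genes were called). That on Cfb did not (-0.96 ± 0.12, adjusted p = 0.0627). The change of the Cfhr2 effect with time did not pass either, but with 1 array without cortisol left at 6 h it could hardly be tested. In cells alone no time passed for these genes with all arrays, at adjusted p = 0.4316 for Cfb and 0.1213 for Cfhr2 at 48 h, where 0.00723% of all genes were called. Without the 3 arrays, Cfb at -0.89 ± 0.11 (adjusted p = 0.031) and Cfhr2 at 0.88 ± 0.09 (adjusted p = 0.0215) passed at 48 h, where 2.13% of all genes were called. The Cfb effect in cells alone at 24 h was -0.26 ± 0.32 with all arrays and -1.12 without the 3, with 1 array with and 1 without cortisol left at that time.

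Other complement genes were taken from a list of 48, of which 46 had a probe and 25 were bright enough to be tested. Of these, 1 was called higher and 0 lower at 6 h, 1 higher and 0 lower at 24 h, and 6 higher and 1 lower at 48 h. Among all genes 9.67%, 8.39% and 31.5% were called at these times (4.4%, 4.73% and 14.5% higher), so that the 7 of 25 called at 48 h lay close to the share over all genes. Their median log2 ratio was 0.12, 0.13 and 0.24 at the 3 times. Of the recognition genes, the ficolin gene Fcna was called at 24 h (0.60 ± 0.08) and 48 h (0.67 ± 0.08), and the C1q genes C1qa, C1qb and C1qc were well above background on at most 1 array. Properdin, Cfp, which steadies the alternative convertase, lay at 0.42 ± 0.06, 0.52 ± 0.06 and 1.63 ± 0.06 and was called at 48 h (3.09-fold). The C5 gene Hc (0.65 ± 0.09), the surface regulator Cd55 (0.75 ± 0.06) and the C3 fragment receptor subunit Itgam (0.78 ± 0.06) were called higher at 48 h alone, Itgam being also a macrophage marker. Cd93 was called at 6 h (0.74 ± 0.08) and 48 h (0.88 ± 0.08). The regulator Cr1l was called lower at 48 h (-0.62 ± 0.06). At 48 h these genes kept their direction with processed signals, deposited ratios, scaling between arrays and median centring, but with the last Hc was 0.32, Cd55 0.41, Itgam 0.42 and Fcna 0.50, none of them called. Hc was 0.58 and not called with scaling between arrays either, and Cr1l was not called with processed signals (-0.53), deposited ratios (-0.53) or scaling (-0.55).

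**Figure D4:**
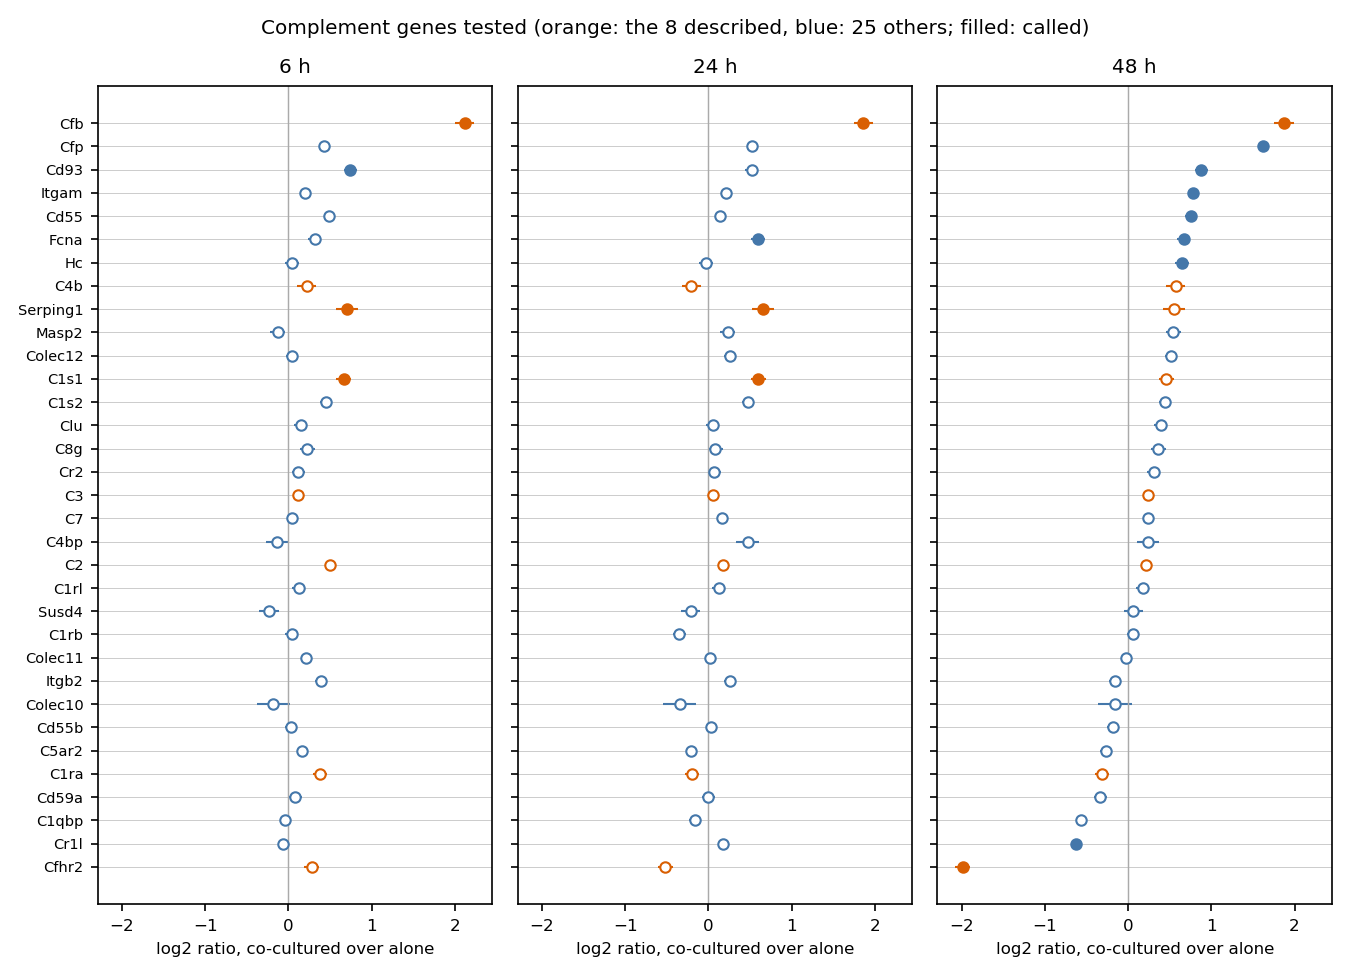
Log2 ratio of co-cultured over alone (mean ± SE from the fit) at 6, 24 and 48 h for the 8 complement genes described (orange) and the 25 others tested (blue), in the order of their values at 48 h. Filled symbols mark called genes, which number 4 at 6 h, 4 at 24 h and 9 at 48 h.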

How the data were processed

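RNA of 3T3-L1 cells was hybridized to 12 two-colour Agilent mouse arrays. The authors deposited spot intensity and local background intensity, processed intensity, log10 ratios of Cy5 over Cy3 and quality flags, extracted with Feature Extraction, for which the file headers name version 10.7.3.1 and the submitters' processing notes 10.5.1.1. The log10 values of the deposited table matched the scanner ratios of the same arrays and had a median of 0.

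Median intensities were background-corrected (normexp, offset 50). Backgrounds above 5 times the array median were replaced by it and the spot left out, as were outlier spots. Log2 ratios were loess-normalized, and single-channel levels also Aquantile-normalized. Named probes that at least 3 arrays showed well above background, in Cy5 or Cy3, were kept, the brightest per gene. Probes were named from the accession in the files through RefSeq tables, 27508 of 39429 being named. Additive models of time and treatment (6 residual degrees of freedom) were fitted in limma 3.58.1 (R 4.3.3) with a mean trend, over all genes, with Benjamini-Hochberg adjustment. The fit was tested on simulated data. The cortisol main effect in the channels and the cortisol effect at each time (time, serotonin and cortisol within time), also by probe, were added after seeing the data. Figures used matplotlib 3.10.9.

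The 9 genes and all lists (other complement genes, macrophage, fibroblast and adipocyte markers, NF-kB feedback, interferon-stimulated and acute-phase genes) were chosen with earlier results of these data known. All 9 genes were named, those of the complement list if called in the co-culture ratio at 1 or more of the 3 times, and, for likeness, the 3 genes of highest Pearson r over the 12 ratios. The C1q genes and close copies were named besides, after their values were seen. 1 gene of the complement list that met this rule is not reported here and is left out of its counts. Alternatives changed the background correction, normalization, filter, probe rule, weights, thresholds, model and arrays. Precision is limited by the number of arrays.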

Additional observations from a re-analysis of the deposited data

Results flagged for a closer look

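Of 72 sets of 4 arrays (a gene, a time and a channel or the ratio), 2 held an array far from the other 3, where chance gives about 1 in 20. In cells alone at 6 h, C1s1 had a log2 level of 13.56 in C, against 13.94 in S, 13.88 in CS and 13.90 in NT. In cells alone at 24 h, C2 had 7.24 in NT, while S, C and CS lay between 6.83 and 6.88, in a channel where C2 was well above background on 4 of 12 arrays.

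The co-culture ratio differed between times for 3 genes. For Cfhr2 it changed by -0.79 at 24 h minus 6 h, by -1.47 at 48 h minus 24 h and by -2.26 at 48 h minus 6 h, in the same direction on 4 of 4 treatments. For C1ra it changed by -0.70 at 48 h minus 6 h, and for C4b by 0.77 at 48 h minus 24 h, also on 4 of 4 treatments. Some of these calls did not hold. Without the S array at 48 h the C1ra change was -0.57, under the fold threshold, and with median centring the C4b change was -0.03. Without the 3 arrays in doubt the first of the Cfhr2 changes did not pass. The cortisol effect on the Cfhr2 level in co-cultured cells was 1.48 further up at 48 h than at 6 h by its brighter probe. This did not pass without the 3 arrays in doubt, a fit with too few arrays left at 6 h to test it well. Each time lay on a slide of its own, and cultures of 48 h had a change of medium, so time, slide and medium change cannot be told apart in these differences.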

How the results depend on the processing

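Of 820 values of single genes recomputed under the alternatives, 740 kept their direction and their side of the thresholds, 35 newly passed, 34 no longer passed and 11 turned. No paired analysis was possible because each condition had 1 array, with no replicate number to block on, though each ratio set the channels of 1 array against each other and the fits held time as a term. C3 turned with Feature Extraction's processed signals (-0.0777, -0.25 and -0.0221 at 6, 24 and 48 h), likewise with the deposited log10 ratios (-0.0777, -0.25 and -0.0221), with the mean of its probes at 48 h (-0.008) and without the S array at 24 h (-0.0006, in a range of -0.0006 to 0.10 over single arrays left out). With arrays centred on their median and no loess, C1ra (0.39) and C4b (0.20) turned at 24 h, as did the C4b change from 24 to 48 h (-0.0327). That setting moved the median of all genes to 0.23, 0.39 and -0.16 at the 3 times and called 3499 higher and 230 lower, 4683 and 110, and 1585 and 3633, where loess gave 609 and 729, 654 and 506, and 2007 and 2349. Processed signals gave 1133 and 975, 1400 and 728, and 3077 and 2922. The count of 3 of 8 called at 6 h was 5 with median centring, 1 at a fold threshold of 2 and 6 with none. The count of 3 at 24 h was 1 at a fold threshold of 2 and 5 with none. The count of 2 at 48 h was 4 with processed signals, offset 10, median centring, deposited ratios or array weights, and 8 with no fold threshold. For 24 h minus 6 h the count of 1 was 2 with offset 10 or scaling between arrays, 3 with no fold threshold, and 0 with the mean of probes, a fold of 2 or without the 3 arrays. For 48 h minus 24 h and 48 h minus 6 h the count of 2 was 6 with median centring and 1 at a fold of 2, and the second of them 1 with the mean of probes. In co-cultured cells, CS minus NT (1) gave 0 with processed signals, high backgrounds kept, no filter, the mean of probes, a fold of 2 or without the 3 arrays, and 2 with no fold threshold. The cortisol main effect (1) gave 2 with the filter on all 12 arrays, array weights or no fold threshold and 0 at a fold of 2 or without the 3 arrays. C minus NT (0) gave 1 with array weights, and 48 h minus 6 h (1) gave 5 with no fold threshold. In cells alone, 24 h minus 6 h (0) gave 1 with the mean of probes or no fold threshold and 48 h minus 6 h (0) gave 1 with no fold threshold. Leaving out 1 array at a time gave counts of 3 to 3 at 6 h, 1 to 3 at 24 h and 2 to 4 at 48 h, 1 to 2 for each difference between times, and in co-cultured cells 0 to 1 for 24 h minus 6 h, 0 to 1 for CS minus NT and 0 to 2 for the cortisol main effect. The cause of these shifts was not tested, and Cfd and C2 in cells alone were limited by signal near background.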

Other observations

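The other response lists moved by time in the co-culture ratio as follows. Of 10 NF-kB feedback genes tested, 7 were called higher at 6 h, 4 at 24 h and 5 at 48 h, with medians of 0.76, 0.36 and 0.44. Of 11 acute-phase genes, 6 were called higher at 6 h, 3 at 24 h and 5 at 48 h, with 1 lower at 48 h and medians of 0.73, 0.35 and 0.38. Of 18 interferon-stimulated genes, 2 were called higher and 7 lower at 6 h, 0 higher and 9 lower at 24 h, and 1 higher and 12 lower at 48 h, with medians of -0.38, -0.66 and -0.84. Among all genes, 9.67%, 8.39% and 31.5% were called at these times. Of 7 adipocyte genes tested, 1 was called higher at 6 h, 0 at 24 h and 1 at 48 h, with 1 lower at 48 h. Of 12 fibroblast markers, 1 was higher at 6 h, 1 higher and 1 lower at 24 h, and 2 higher and 3 lower at 48 h.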
